A study of Bos taurus with 6 samples.

Results

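Predicted loci that overlap annotated genes are stretches of the bovine genome where the authors' transcript discovery built a new gene that shares at least 1 base with a gene already in the annotation. They were chosen from the deposited annotation alone: every gene row marked as predicted that overlaps an annotated gene row or a coding row, split by whether both lie on the same strand. Of 6603 predicted loci, 904 overlapped (13.7%) and 5699 did not. On the strand of the annotated gene, here called the host, lay 74 loci, and on the opposite strand 838, with 8 loci in both classes. They made 75 same-strand and 902 opposite-strand pairs of a locus and a host, and touched 974 of 20923 annotated gene rows (4.66%).

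A gene can lie over another on the opposite strand, in which case its RNA is antisense to the host and may be coding or non-coding. On the same strand, transcript discovery can place a new locus beside a gene where the annotation stops short, such as at an upstream first exon or a longer 3′ untranslated region, or where a separate transcription unit begins. Oocytes store RNA made during growth and make almost none during maturation, so their libraries hold transcripts that other tissues may lack.

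The study sequenced single bovine oocytes, as 50-base single reads of cDNA amplified from ultra-low amounts of RNA. The GV group (germinal vesicle, arrested in meiotic prophase) was taken at aspiration of cumulus-oocyte complexes from abattoir ovaries, and the MII group (metaphase of the second meiotic division) after 24 hours of maturation in vitro. No strain, age or donor is named for either group, and a source label calls all samples matured in vitro, so stage was taken from the titles. The RPKM table (reads per kilobase of gene and per M mapped reads) holds 3 libraries a stage, GV14, GV14c and GV15 against MII14c, MII15 and MII15c, and values are given in that order. A level is relative to all mapped reads of its library, so it does not show the total RNA of an oocyte. The columns GV14c and MII15c match no sample title and entered by their stage alone. What the numbers and the letter c mean, and whether libraries come from different animals, is not stated, so p-values measure the spread between libraries, which may be technical.

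Depth recovered from low RPKM values was 20.3 to 29.9 M reads for GV and 21.2 to 32.7 M for MII. The libraries held the defining genes of oocytes: 12 of 12 listed markers in the table averaged at least 1 RPKM, with a summed level of 17000 to 21800 RPKM in GV and 18390 to 30730 RPKM in MII. BTG4 was the largest part of that sum (9992, 8938 and 14209 RPKM in GV and 14397, 27255 and 19633 RPKM in MII). The sum therefore says little of the other markers, which moved in both directions. FIGLA was lower in MII (35.5, 23.7 and 27.9 against 1.06, 0.114 and 0.261 RPKM) and KPNA7 higher (77.1, 126 and 76.4 against 210, 130 and 186 RPKM). Of 13 cumulus and granulosa cell markers 2 did so (STAR and HAS2), with sums of 82.2 to 155 RPKM in GV and 94.97 to 99.1 RPKM in MII and LHCGR and PTX3 at 0 throughout. Within that sum STAR was lower in MII (136, 101 and 67.1 against 39.7, 37.3 and 29.3 RPKM) and HAS2 higher (18.3, 18.9 and 11.6 against 55.4, 58.4 and 64.8 RPKM), each without overlap between the stages. Their part in the results on hosts was not tested. Of 5 blood and immune markers none did, with sums of 0.372 to 1.38 RPKM in GV and 0 to 0.259 RPKM in MII, and CD14 and HBB at 0. The adapter dilution was 1 in 30 for GV14 and 1 in 10 for GV15, against 1 in 50 for both titled MII columns, and its effect cannot be told apart from that of stage.

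The support of a locus is the number of reads that the authors' discovery assigned to it, some of them spliced, and it is pooled over stages. It therefore says nothing of when a locus was present. All gene rows together hold 43.9 M supporting reads, less than the 162 M of the 6 libraries summed, and which libraries entered the discovery is not given in the sources used here. Overlapping loci hold 0.527 M of these reads (1.20%). A locus row gives its span and not its exons, so an overlap is one of spans. The span of a host is likewise that of its gene row in the extended annotation. Such a row can be far longer than the gene that names it: 1 same-strand host identified by a miRNA alone spanned about 39580 bases. Whether the discovery moved the ends of hosts was not tested, so positions are relative to these rows and not to reference gene ends. Whether reads were assigned by strand is not stated, so reads of a gene and of a locus antisense to it cannot be told apart where their exons coincide.

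Most same-strand overlaps were short and at an end of the host, and 21 of 75 were 129 bases or longer. The median overlap was 30 bases (quartiles 29 and 451, range 3 to 47923), and 54 of 75 pairs (72.0%) shared fewer than 50 bases, the length of a read. Within a window of 26 to 32 bases lay 44 pairs. Of the 54 short overlaps, 36 were at the 5′ end of the host and 18 at its 3′ end. No same-strand locus overlapped a coding row on its own strand (0 of 74). Whether the discovery could build a separate locus there, or would add such reads to the host, is not stated. This count may therefore follow from the procedure, which was not tested.

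Opposite-strand overlaps were long. Their median was 6496 bases (quartiles 1900 and 28130, range 9 to 1199718), and 16 of 902 pairs (1.77%) shared fewer than 50 bases. On that strand 710 of the 838 loci overlapped the span of a coding row, introns included.

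**Figure D1:**
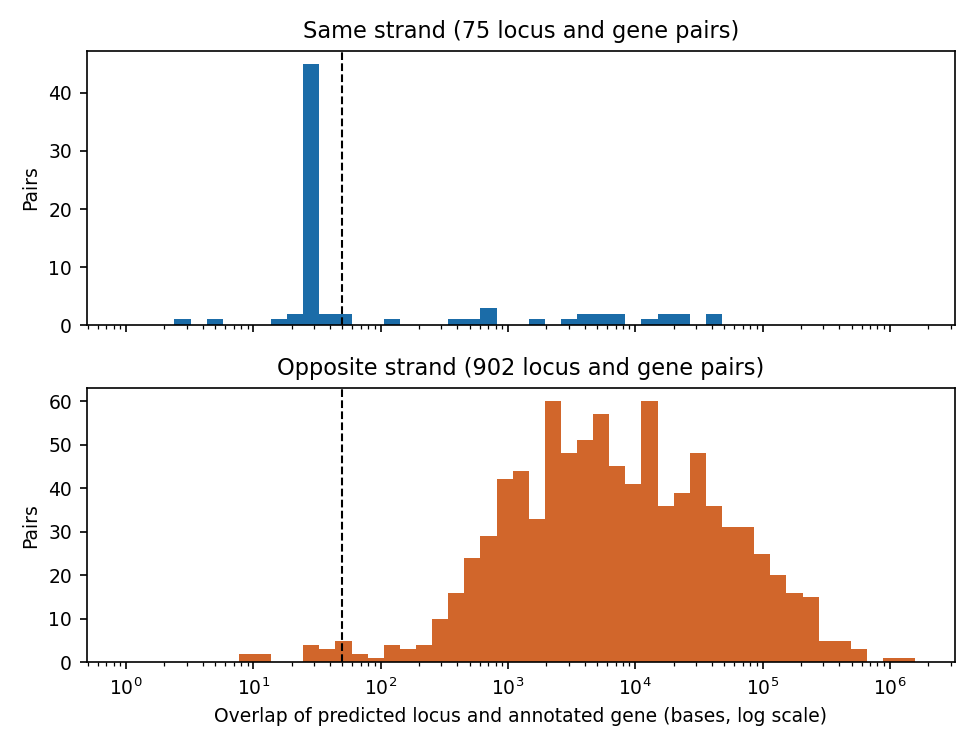
Number of locus and host pairs (vertical axes) by the length of their overlap in bases (horizontal axis, log scale), for the same strand above and the opposite strand below, with the read length of 50 bases as a dashed line. Most same-strand pairs form a peak near 30 bases, and 21 of 75 lie apart at 129 bases or longer. The opposite-strand pairs form a broad peak around their median of 6496 bases.

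At the edge of the rule, the shortest same-strand overlap was 3 bases, between VPS13B, a gene for a large lipid-transfer protein, and the locus numbered 1519 in the annotation. Among loci without overlap, the nearest host on the same strand was 3 bases away (locus 2714, with 3165 reads) and the next 15, and 6 loci lay within 50 bases. On the opposite strand the smallest gaps were 2 bases (locus 4287, with 174 reads) and 7, the shortest overlap was 9, and 4 loci without overlap lay within 50 bases. Same-strand neighbours thus overlapped by under 50 bases in 54 pairs and missed each other by under 50 in 6.

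Along the host, same-strand loci lay at the ends and opposite-strand loci were spread over its length. On the same strand the locus midpoint fell before the host's 5′ end in 40 of 75 pairs (53.3%, 95% exact binomial interval 41.5% to 65.0%), in the first of 3 equal parts of the host in 16 (21.3%, 12.7% to 32.3%) and past the 3′ end in 19 (25.3%, 15.99% to 36.7%). None fell in the middle or the last part (0 of 75 in each, which allows up to 4.80%). These positions too may follow from how the discovery treats reads on the strand of a gene, so the contrast between strands is a description. On the opposite strand the shares were 15.6% before the host's 5′ end, 18.6%, 22.9% and 27.4% in its first, middle and last part, and 15.4% past its 3′ end, of 902 pairs.

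**Figure D2:**
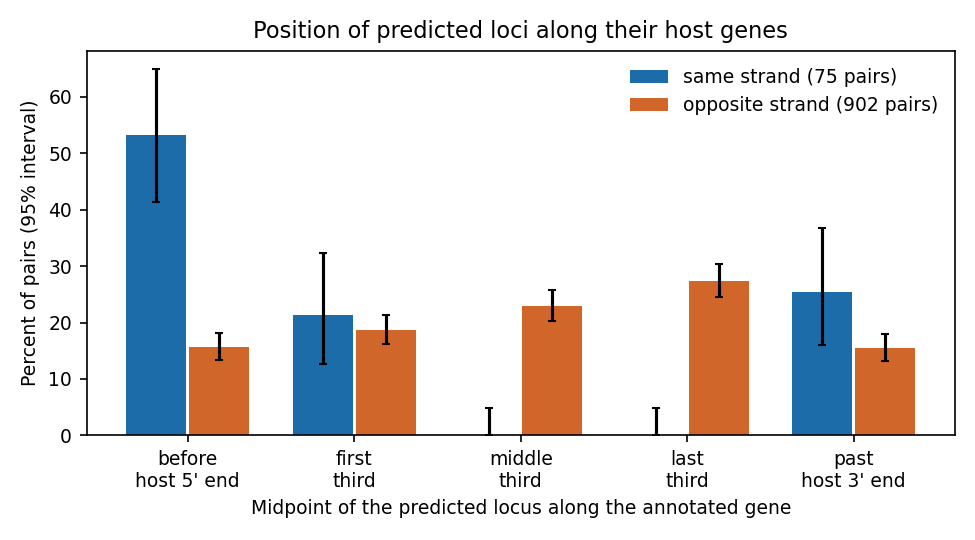
Percent of pairs (vertical axis, bars start at 0, lines are 95% exact binomial intervals that cover counting error only) by where the midpoint of the predicted locus falls along the host (horizontal axis). No same-strand midpoint lies in the middle or last part of the host, whereas each position holds 15.4% to 27.4% of the opposite-strand pairs.

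Of the opposite-strand pairs, 357 had the locus wholly inside the host (39.6%), 242 had it over the 3′ end (26.8%), 187 over the 5′ end (20.7%), and in 116 the host lay inside the locus (12.9%). The 116 hosts inside a locus were short, with a median of 6004 bases against 94340 for hosts that contained a locus. Of all 902 pairs, 642 (71.2%) had a locus span that overlapped a coding exon of the host by at least 1 base. In 107 (11.9%) the locus lay between coding exons, and in 113 (12.5%) outside the coding span. For 40 pairs the host had no coding span. Hosts were annotated as protein-coding in 862 opposite-strand pairs (95.6%) and 61 same-strand pairs (81.3%). The remaining same-strand hosts included gene rows that hold a row annotated as snoRNA, snRNA or miRNA.

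On the same strand, 6 loci lay inside their host. Their midpoints were all in its first part of 3. Of the 21 same-strand overlaps of at least 50 bases, which were 129 bases or longer, 14 ran over the host's 5′ end and 1 over its 3′ end. Among them were ARNTL, the circadian transcription factor also called BMAL1, whose locus on chr15:39748387-39770064 shared 21519 bases with the gene, and SMAD5, a transducer of BMP signals, whose locus on chr7:49103619-49143122 shared 39325 bases. Both of these loci begin just before the start of the host's gene row and end within it.

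Overlapping loci had more support than loci away from genes. Median support was 170 reads for same-strand loci (quartiles 56.5 and 543, maximum 9418, n = 74), 113 for opposite-strand loci (37.0 and 420, maximum 35356, n = 838) and 77.0 for loci without overlap (29.0 and 263, maximum 21826, n = 5699). The 95% intervals of these medians were 102 to 238, 97 to 143 and 73 to 82 reads. Every predicted locus in the annotation had at least 10 reads and at least 1 spliced read. A single spliced read was all that 2.70% of same-strand, 6.33% of opposite-strand and 19.7% of non-overlapping loci had. The median share of spliced reads was 13.8%, 9.09% and 6.11% in that order.

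At least 1000 reads supported 13 same-strand loci (17.6%), 100 opposite-strand loci (11.9%) and 455 loci without overlap (7.98%). Opposite-strand loci spanned a median of 17190 bases, against 7894 for same-strand loci and 8186 for loci without overlap. Support is a count of reads and was not adjusted for span. Across pairs, Spearman's rho between support and locus span was 0.27 on the opposite strand and 0.26 on the same strand. A single transcript was built for 56.8%, 39.5% and 51.1% of same-strand, opposite-strand and non-overlapping loci. These are counts over loci of a pooled annotation, so no replicate error and no test stand behind them.

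Against their hosts, same-strand loci were the smaller partner in most pairs. The host had more support than the locus in 65 of 75 same-strand pairs, and in 1 pair the locus exceeded the host more than 10-fold. On the opposite strand the host had more support in 568 of 902 pairs and the locus in 330, more than 10-fold in 128, and 51 hosts had no supporting read. Across pairs, Spearman's rho between locus support and the host's mean RPKM was 0.47 on the same strand (69 pairs) and 0.19 on the opposite strand (888 pairs). Both quantities share the libraries, and pairs are not replicates, so this is a description.

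**Figure D3:**
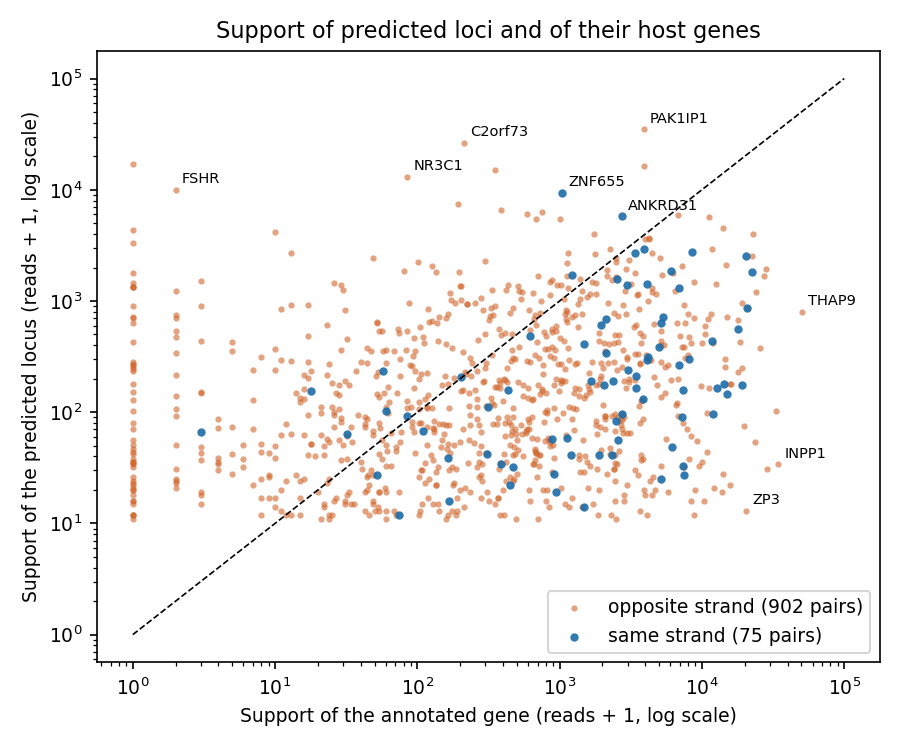
Supporting reads of the predicted locus (vertical axis, reads + 1, log scale) against those of its host (horizontal axis, reads + 1, log scale), 1 point per pair, with equality as a dashed line. Most same-strand points lie below the line, and opposite-strand points with a host at 0 or near 0 form the column at the left, where FSHR is named.

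The opposite-strand loci of most support lay over genes that oocytes expressed at very different levels. Locus 3484, on chr23:45288104-45303548 over the 5′ end of PAK1IP1, a nucleolar protein of ribosome biogenesis, had 35356 reads, 160 of them spliced, against 3888 reads for the gene. PAK1IP1 measured 18.9, 21.6 and 13.9 RPKM in GV and 25.8, 20.9 and 21.6 RPKM in MII, with overlap between the stages. Locus 739, on chr11:36929639-36954101 over the 3′ end of C2orf73, an uncharacterised gene, had 26528 reads with 85 spliced, against 212 for the gene. C2orf73 measured 4.42, 4.36 and 4.93 RPKM in GV and 6.64, 6.21 and 6.85 RPKM in MII, each MII library above each GV library. Neither gene passed the test (limma adjusted p = 0.332 and 0.226).

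Genes with almost no reads of their own were hosts of some of the best-supported loci. FSHR, the follicle-stimulating hormone receptor of granulosa cells, was listed at 0, 0.014 and 0 RPKM in GV and at 0 in every MII library, and had 1 supporting read. Locus 724, wholly inside it on chr11:31141095-31278169, had 10010 reads, 77 of them spliced. NR3C1, the glucocorticoid receptor, was at 0.028, 0.031 and 0 RPKM in GV and 0, 0 and 0.038 RPKM in MII, with 84 supporting reads. Locus 5518 over its 3′ end, on chr7:56199481-56276001, had 13157 reads, 275 of them spliced. Both genes were below the level needed for the test, and in NCBI RefSeq's ARS-UCD2.0 annotation each shares its span with a long non-coding RNA gene, LOC132346571 for FSHR and LOC107132646 for NR3C1.

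CLDN18, a tight-junction protein, was low but not absent. It measured 0.581, 0.292 and 0.277 RPKM in GV and 0.018, 0.026 and 0.465 RPKM in MII, while locus 257 over its 5′ end had 15040 reads. AUTS2, a regulator of transcription known from neurons, was less low and had reads in every library. It measured 0.434, 1.99 and 0.482 RPKM in GV and 0.982, 0.382 and 1.56 RPKM in MII, with 7386 reads in locus 3744 over its 3′ end. A host on chromosome 18, ENSBTAG00000038903, was listed at 0 RPKM in all 6 libraries and had no supporting read, while locus 2314 over its 3′ end had 17128 reads. The table pairs that identifier with the symbol CEP19, which RefSeq places on another chromosome, so the symbol is uncertain. These 3 hosts were not tested because their mean fell below 1 RPKM.

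R3HDM1, a protein with an RNA-binding R3H domain, differed from these hosts in that it passed the test. It measured 7.81, 6.90 and 5.77 RPKM in GV and 1.74, 0.705 and 1.57 RPKM in MII. All GV libraries exceeded all MII libraries, and the log2 change of RPKM + 1, MII minus GV, was -1.77 ± 0.32 (SE, limma adjusted p = 0.00281). Locus 2681 over its 5′ end spans chr2:61975064-62179495 and had 16260 reads, 91 of them spliced.

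The best-supported same-strand locus was 3780, on chr25:37375942-37385175, which met the 3′ end of the zinc-finger gene ZNF655 with 25 shared bases. It had 9418 reads but 22 spliced ones, against 1043 reads for the gene. ZNF655 measured 6.07, 8.39 and 3.46 RPKM in GV and 8.82, 1.78 and 4.07 RPKM in MII, with stages that overlap widely (limma adjusted p = 0.584). ANKRD31, a regulator of meiotic DNA breaks, met locus 322 on chr10:6531727-6604091 at its 5′ end with 29 shared bases and 5756 reads, 163 of them spliced. It measured 8.41, 5.63 and 8.60 RPKM in GV and 10.4, 7.98 and 7.91 RPKM in MII, again overlapping (limma adjusted p = 0.613).

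The other 6 same-strand loci in the group of most support shared 28 to 32 bases with their hosts and had 1813 to 2920 reads. CCDC66, a centrosomal and ciliary protein, measured 91.9, 62.8 and 102 RPKM in GV and 137, 188 and 166 RPKM in MII, and the stages do not overlap. Its log2 change was 0.95 ± 0.24 (SE, limma adjusted p = 0.0141), and the call was lost without MII15c (limma adjusted p = 0.0562) and without both untitled columns (limma adjusted p = 0.122). C5orf42, a ciliary gene, was at 6.74, 4.72 and 6.14 RPKM in GV and 25.2, 5.11 and 15.2 RPKM in MII, where MII15 lies among the GV libraries. AKTIP, an AKT-interacting protein, averaged 80.9 ± 14.3 RPKM in GV and 66.5 ± 6.42 RPKM in MII, and the Kelch-family gene KLHL32 averaged 13.9 ± 3.04 and 7.90 ± 2.06 RPKM (SD, n = 3). With STK39, neither passed the test (limma adjusted p = 0.357 and 0.0772, and 0.902 for STK39). In RefSeq's ARS-UCD2.0 annotation CCDC66 shares its span with TASOR, AKTIP with RBL2 and KLHL32 with MMS22L, all coding genes. There STK39 and ZNF655 each share their span with a long non-coding RNA gene, LOC100847850 and LOC112444278.

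How the hosts differ between GV and MII was tested with limma on log2(RPKM + 1) over the 8671 genes that averaged 1 RPKM or more, with p-values adjusted by Benjamini-Hochberg and called below 0.05. Of 69 same-strand hosts with an Ensembl identifier, 64 reached that level (92.8%). Of 885 opposite-strand hosts in the table, 393 did (44.4%), beside 41.9% of all 20707 genes. The median level was 9.90 RPKM for same-strand hosts, 0.688 RPKM for opposite-strand hosts and 0.407 RPKM for all genes. In all 6 libraries 1 same-strand host (1.45%) and 83 opposite-strand hosts (9.38%) were listed at 0, beside 4684 of all genes (22.6%).

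Of the 64 tested same-strand hosts, 6 were lower in MII (9.38%, beside 26.9% of all tested genes) and 15 were higher (23.4%, beside 13.4%). Of the 393 tested opposite-strand hosts, 117 were lower (29.8%) and 34 higher (8.65%). In either direction 40.3% of all tested genes passed. The stages did not overlap in 8 same-strand hosts that were lower and 21 that were higher, and in 144 and 52 opposite-strand hosts, beside 32.1% of all tested genes lower and 19.8% higher. Among opposite-strand hosts the share of lower calls was near that of all genes and the share of higher calls was below it. The same-strand shares rest on few genes. None of these differences from all genes was tested.

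The median log2 change was 0.23 for same-strand and -0.33 for opposite-strand hosts, and -0.16 for all tested genes. Relative to all genes it was 0.40 and -0.16. Under median-ratio, quantile and TPM scaling the median of all genes moved to 0.05, 0.22 and -0.07, and the relative medians were 0.39, 0.45 and 0.46 for same-strand hosts and -0.17, -0.13 and -0.20 for opposite-strand hosts. The share of calls that were lower among opposite-strand hosts was 77.5% as planned, 67.8% with median-ratio scaling (103 lower, 49 higher) and 55.6% with quantile normalization (84 and 67). For same-strand hosts it was 28.6%, 19.2% and 17.2%. It moved alike for all tested genes, at 66.7%, 55.0% and 45.5%. Without both untitled columns the calls fell to 4 lower and 4 higher for same-strand hosts and 52 and 10 for opposite-strand hosts, while those of all tested genes fell from 2329 lower and 1162 higher to 1280 and 352. Without MII15c alone the higher calls fell to 7 for same-strand and 15 for opposite-strand hosts, and to 585 for all tested genes.

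**Figure D4:**
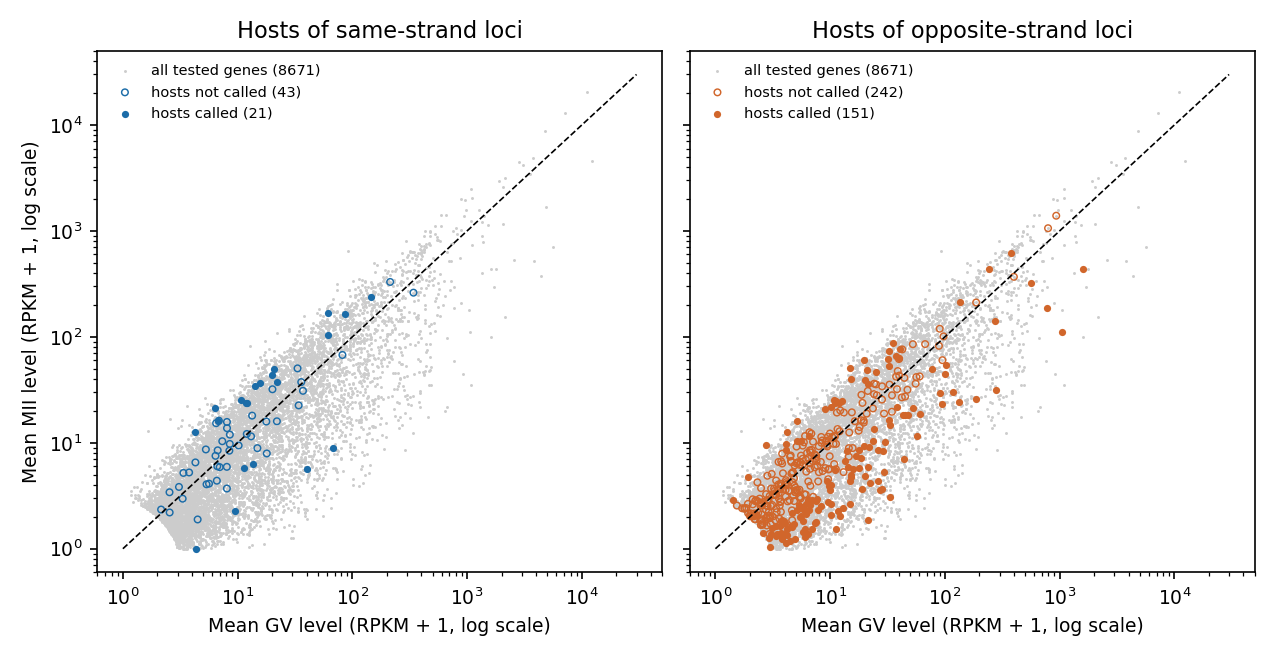
Mean level of each tested host in MII (vertical axis, RPKM + 1, log scale) against GV (horizontal axis, RPKM + 1, log scale) of 3 libraries each, for same-strand hosts at the left and opposite-strand hosts at the right, filled where the limma call passed, over all tested genes in grey and with equality as a dashed line. Of the filled points, 15 of 21 same-strand hosts lie above the line and 117 of 151 opposite-strand hosts below it.

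The calls by position are read against the 26.9% lower and 13.4% higher of all tested genes, and no difference from these was tested. Hosts with an opposite-strand locus over their 5′ end had 35 lower (36.1%) and 10 higher calls (10.3%) among 97 tested. Those with one over their 3′ end had 29 (28.4%) and 8 (7.84%) among 102, and those with one inside 52 (28.4%) and 13 (7.10%) among 183. Hosts inside a locus were mostly below 1 RPKM: 12 of 115 were tested and 52 were listed at 0 in all libraries. Where the locus had more support than the host, 37 of 322 opposite-strand hosts were tested, with 14 lower (37.8%) and 1 higher (2.70%). Of the same-strand hosts, 43 with the locus at their 5′ end gave 3 lower (6.98%) and 11 higher calls (25.6%), and 16 with it at their 3′ end gave 2 (12.5%) and 3 (18.8%).

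Among same-strand hosts the rule named 6 rises and 4 falls. It took only hosts that passed the test and whose stages do not overlap, so for them the separation follows from the choice. PIK3C2A, a class II phosphoinositide 3-kinase, measured 6.13, 3.71 and 6.29 RPKM in GV and 29.6, 12.4 and 18.2 RPKM in MII. All MII libraries exceeded all GV libraries, with a log2 change of 1.67 ± 0.36 (SE, limma adjusted p = 0.0061), lost without both untitled columns (limma adjusted p = 0.0675). Locus 1619 met its 3′ end with 29 shared bases and had 2920 reads, 187 of them spliced, against 3924 for the gene. ARNTL measured 56.3, 74.2 and 48.8 RPKM in GV and 174, 152 and 174 RPKM in MII. The stages stand well apart, with a log2 change of 1.48 ± 0.22 (SE, limma adjusted p = 0.00101), and its locus 1637 had 859 reads against 20886 for the gene.

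SMAD5 measured 13.9, 11.5 and 14.2 RPKM in GV and 34.9, 29.3 and 35.5 RPKM in MII, a log2 change of 1.27 ± 0.23 (SE, limma adjusted p = 0.00271). ESCO1, which acetylates cohesin, measured 6.92, 5.06 and 5.22 RPKM in GV and 15.7, 15.2 and 14.5 RPKM in MII. The MII libraries were close together and above all GV libraries, with a log2 change of 1.27 ± 0.26 (SE, limma adjusted p = 0.00499), lost without both untitled columns (limma adjusted p = 0.0606). Locus 3562 covered the 5′ end of ESCO1 by 31 bases. In RefSeq's ARS-UCD2.0 annotation ESCO1 shares its span with SNRPD1, a coding gene.

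KBTBD2 and TIGD2 were hosts in both orientations. KBTBD2, a BTB and Kelch adaptor of a ubiquitin ligase, measured 3.003, 5.04 and 1.60 RPKM in GV and 9.97, 16.3 and 8.61 RPKM in MII. The stages do not overlap, with a log2 change of 1.62 ± 0.39 (SE, limma adjusted p = 0.0104). A same-strand locus (4762, 90 reads) met its 5′ end with 28 bases, and an opposite-strand locus (4763, 2073 reads) contained the whole gene. TIGD2, a gene derived from a transposase, measured 17.9, 5.88 and 5.43 RPKM in GV and 27.3, 20.1 and 25.5 RPKM in MII, where GV14 stands apart from the other GV libraries. Its log2 change was 1.42 ± 0.41 (SE, limma adjusted p = 0.0233), and the call was lost with no filter and without any of GV14c, GV15, MII14c and MII15c (limma adjusted p = 0.0647 to 0.077), or both untitled columns (0.173).

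ZAR1, an oocyte RNA-binding protein needed for the maternal-to-embryonic transition, had the largest fall among these hosts. It measured 74.5, 56.8 and 67.7 RPKM in GV and 7.996, 7.93 and 8.14 RPKM in MII. Each GV library was far above the tightly grouped MII libraries, with a log2 change of -2.89 ± 0.22 (SE, limma adjusted p = 3.88e-05). Locus 5284, on chr6:68827065-68835378, shared 30 bases with the 3′ end of ZAR1 and had 32 reads, all 32 spliced, and it also lies opposite FRYL. RefSeq's ARS-UCD2.0 annotation likewise has FRYL, a coding gene, sharing the span of ZAR1.

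ENSBTAG00000042305 is the identifier of a snoRNA row within a host without a coding row, and the table pairs it with the symbol CHRAC1 of another chromosome. It was listed at 41.0, 27.2 and 49.1 RPKM in GV and 3.40, 5.19 and 5.48 RPKM in MII. The log2 change was -2.80 ± 0.31 (SE, limma adjusted p = 0.000207), and whether the level is that of the snoRNA was not tested. Its locus 2382 met the 5′ end with 29 bases and had 1711 reads, more than the 1219 of the host. WDPCP, a planar cell polarity and cilium gene, measured 12.1, 14.8 and 10.8 RPKM in GV and 6.55, 3.09 and 6.28 RPKM in MII. In RefSeq's ARS-UCD2.0 annotation WDPCP shares its span with MDH1, a coding gene. SLMO1, a mitochondrial lipid-transfer gene, measured 10.3, 9.65 and 11.1 RPKM in GV and 5.30, 3.86 and 5.27 RPKM in MII. Both fell (limma adjusted p = 0.0214 and 0.0207), and both calls were lost without GV14 (limma adjusted p = 0.0649 and 0.0707). The WDPCP call was also lost without GV14c (limma adjusted p = 0.0657), and the SLMO1 call without GV15, without MII15c and with median-ratio or quantile scaling (limma adjusted p = 0.0545 to 0.0746). Without both untitled columns they had limma adjusted p = 0.113 and 0.102.

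Among opposite-strand hosts the rule named 6 rises, KBTBD2 and TIGD2 included, and 6 falls. Here too it took only hosts that passed the test with no overlap between the stages. C9orf72, part of a complex that acts on small GTPases and autophagy, measured 17.0, 12.5 and 12.2 RPKM in GV and 41.2, 55.6 and 51.5 RPKM in MII. All MII libraries lay above all GV libraries, with a log2 change of 1.76 ± 0.24 (SE, limma adjusted p = 0.000725). Its locus 5796, over the 3′ end, had 11 reads and all 11 were spliced, against 8752 for the gene. GFPT1, the first enzyme of the hexosamine pathway, measured 16.8, 19.5 and 19.7 RPKM in GV and 68.8, 48.5 and 60.6 RPKM in MII, with a log2 change of 1.60 ± 0.23 (SE, limma adjusted p = 0.000822). Locus 817 inside it had 376 reads.

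USB1, which trims the 3′ end of U6 snRNA, measured 5.14, 4.87 and 2.52 RPKM in GV and 17.0, 10.7 and 17.2 RPKM in MII. Its stages do not overlap, with a log2 change of 1.64 ± 0.34 (SE, limma adjusted p = 0.00487), lost without both untitled columns (limma adjusted p = 0.0508). The whole gene lies inside locus 2212, whose 302 reads include 120 spliced ones. FBXL4, a mitochondrial F-box protein, measured 11.4, 13.99 and 17.5 RPKM in GV and 32.7, 47.8 and 35.6 RPKM in MII, with a log2 change of 1.37 ± 0.26 (SE, limma adjusted p = 0.00344). Locus 6184 inside it, on chr9:51554391-51557447, had 3670 reads, close to the 4250 of the gene.

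COMMD1, a regulator of copper and NF-kappaB, measured 22.0, 19.8 and 18.9 RPKM in GV and 0.614, 1.16 and 0.88 RPKM in MII. TMEM126A, an assembly factor of respiratory complex I, measured 32.3, 29.2 and 35.2 RPKM in GV and 2.29, 0.973 and 3.06 RPKM in MII. Their log2 changes were -3.50 ± 0.29 and -3.48 ± 0.33 (SE, limma adjusted p = 4.65e-05 and 9.15e-05), with every GV library far above every MII library. The loci had 97 reads over the 3′ end of COMMD1 and 83 over the 5′ end of TMEM126A.

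RPL7L1, a ribosome-biogenesis relative of a ribosomal protein, measured 270 (GV14), 182 (GV14c) and 385 (GV15) RPKM, against 33.6, 33.1 and 24.0 RPKM in MII. The log2 change was -3.11 ± 0.29 (SE, limma adjusted p = 9.15e-05), and locus 3392 over its 3′ end was well supported, with 1494 reads of which 361 were spliced. POLR1D, a subunit of RNA polymerases I and III, measured 38.4, 15.2 and 28.8 RPKM in GV and 2.81, 2.64 and 2.63 RPKM in MII, with a log2 change of -2.86 ± 0.35 (SE, limma adjusted p = 0.000407). ENSBTAG00000037010 is the identifier of an rRNA row within a host without a coding row, paired with the symbol POLG of another chromosome. The 2 pairs of this type had a median host length of 32350 bases, and whether the level is that of the rRNA was not tested. The identifier was listed at 30.0, 29.0 and 19.9 RPKM in GV and 2.82, 1.11 and 3.74 RPKM in MII. Its level fell by 2.997 ± 0.36 on the log2 scale (SE, limma adjusted p = 0.000355).

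**Figure D5:**
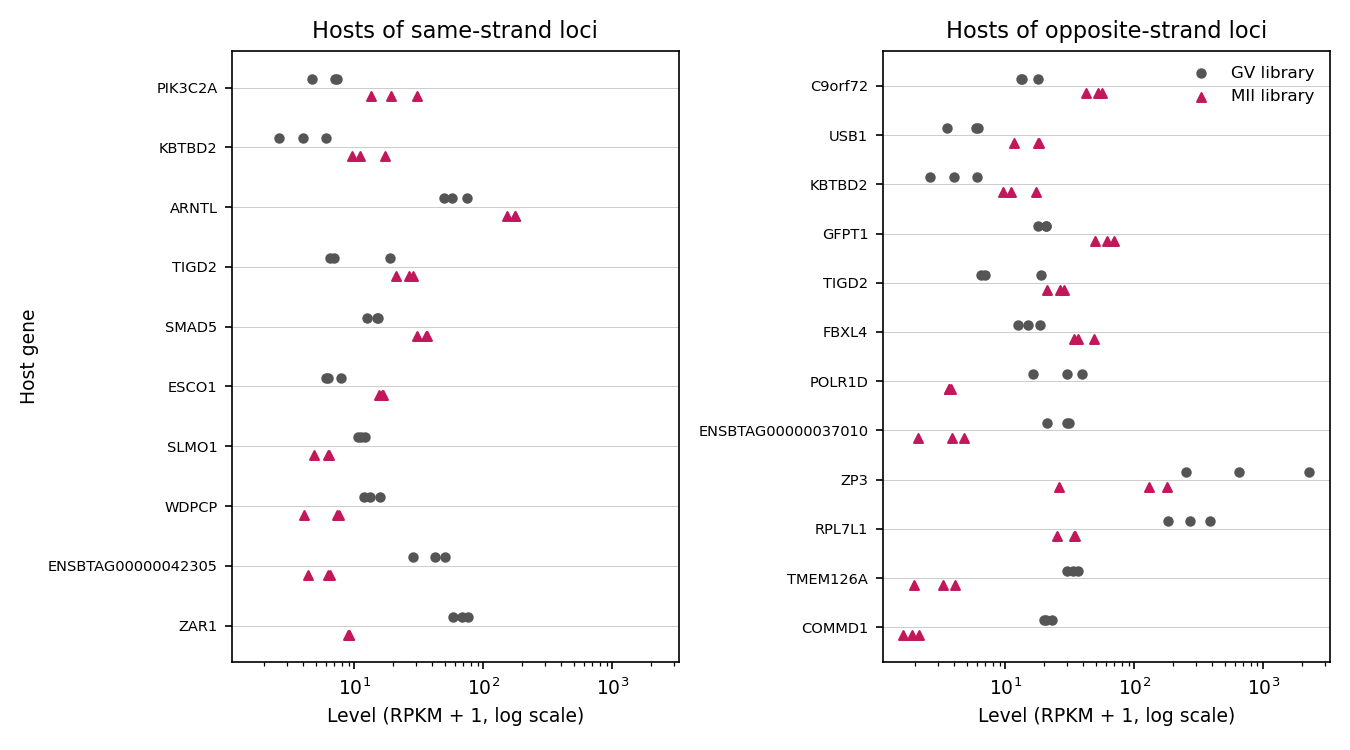
Level in each library (horizontal axis, RPKM + 1, log scale) of the hosts (vertical axis) with the largest rises and falls, same-strand hosts at the left and opposite-strand hosts at the right, with GV libraries as grey circles and MII libraries as red triangles. Only hosts whose stages do not overlap were chosen for drawing, so their separation is not a result. The 3 GV libraries of ZP3 spread from 248 to 2274 RPKM.

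Genes of 7 lists for oocytes were found among the hosts at counts to be read against the hosts among all 20923 annotated gene rows. Those were 75 rows on the same strand, 901 on the opposite strand and 974 (4.66%) on either. On the same strand the listed hosts were TLE6 and ZAR1 from 22 measured oocyte-secreted, zona and maternal-effect genes, and NEDD4 from 38 genes of the ubiquitin system. On the opposite strand they were BMP15, LHX8 and ZP3 from the first of these lists, EIF4E and ZFP36L1 from 48 genes of RNA binding, tail and decay, EHMT2 from 31 chromatin genes, TEX19 from 24 stored maternal mRNAs, and FBXO28 and SKP1 of the ubiquitin system. No host was among 46 cell cycle and spindle genes or 36 membrane traffic genes. Beside 4.66% of all rows, lists of that size are too small for anything to be read from these zeros.

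ZP3, a zona pellucida protein that binds sperm, measured 644, 2274 and 248 RPKM in GV and 176, 25.04 and 128 RPKM in MII. The stages do not overlap, but the GV libraries spread widely and GV15 lies nearer to MII14c than to GV14. Its log2 change was -3.09 ± 0.85 (SE, limma adjusted p = 0.0184), and the call was lost with no filter, without GV14c and without both untitled columns (limma adjusted p = 0.0766, 0.0506 and 0.0782). Locus 3772 inside it had 12 reads, 7 of them spliced, against 20329 for the gene.

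LHX8, an oocyte transcription factor, measured 30.2, 34.8 and 31.7 RPKM in GV and 15.3, 9.38 and 16.4 RPKM in MII, with all GV libraries above all MII libraries. Its log2 change was -1.21 ± 0.27 (SE, limma adjusted p = 0.0069). Locus 4447 over its 5′ end, on chr3:69917062-69922645, was almost wholly spliced, with 190 of 195 reads. ZFP36L1, which binds AU-rich elements of mRNA, measured 123, 87.1 and 86.1 RPKM in GV and 43.8, 40.7 and 47.5 RPKM in MII, a log2 change of -1.13 ± 0.22 (SE, limma adjusted p = 0.00393). Locus 578 inside it had 686 reads, 6 of them spliced.

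The other listed hosts did not pass the test. BMP15, the oocyte growth factor, measured 764, 869 and 743 RPKM in GV and 1435, 918 and 826 RPKM in MII, and GV14c lies above MII15c (limma adjusted p = 0.245). Locus 6421 inside it, on chrX:93971018-93978779, had 2523 reads of which 25 were spliced. TLE6, of the subcortical maternal complex, measured 17.9, 23.9 and 9.11 RPKM in GV and 11.3, 2.76 and 6.70 RPKM in MII (limma adjusted p = 0.0669). NEDD4, a ubiquitin ligase, measured 2.20, 3.08 and 4.57 RPKM in GV and 6.45, 4.62 and 5.52 RPKM in MII (limma adjusted p = 0.151). In RefSeq's ARS-UCD2.0 annotation TLE6 shares its span with the coding genes TLE2 and ZNF77, and NEDD4 with the coding gene LOC101908048. EHMT2, a histone methyltransferase, averaged 0.80 ± 0.80 RPKM in GV and 1.39 ± 1.28 RPKM in MII (SD, n = 3), and its stages overlap widely (limma adjusted p = 0.615). The row with the symbol EIF4E, which has no coding row and whose symbol RefSeq places on another chromosome, averaged 1.57 and 0.746 RPKM (limma adjusted p = 0.198). TEX19, FBXO28 and SKP1 were below 1 RPKM on average.

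The most abundant hosts came from the opposite strand. THAP9, a gene derived from a transposase, measured 903, 786 and 1111 RPKM in GV and 1047, 1799 and 1326 RPKM in MII, with overlap (limma adjusted p = 0.11), and locus 5331 over its 5′ end had 800 reads against 50484. INPP1, an inositol phosphatase, measured 1584, 1320 and 1908 RPKM in GV and 417, 496 and 386 RPKM in MII. Every GV library exceeded every MII library, with a log2 change of -1.88 ± 0.22 (SE, limma adjusted p = 0.000276). Its locus 2545 had 33 reads, all 33 spliced, against 34451 for the gene.

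On the same strand the most abundant hosts were HNRNPA1, RBPMS and CROT. HNRNPA1, a splicing protein whose symbol 10 rows of the table share and whose reads may be split among copies, measured 402, 222 and 396 RPKM in GV and 146, 385 and 249 RPKM in MII (limma adjusted p = 0.369). RBPMS, an RNA-binding protein, measured 183, 180 and 274 RPKM in GV and 284, 400 and 302 RPKM in MII (limma adjusted p = 0.0599), with no overlap between the stages. CROT, a peroxisomal acyltransferase, measured 134, 145 and 152 RPKM in GV and 239, 214 and 255 RPKM in MII, and it rose by 0.71 ± 0.19 on the log2 scale (SE, limma adjusted p = 0.0149). That call was lost without GV14, without MII15c and without both untitled columns (limma adjusted p = 0.0556, 0.0736 and 0.122). Locus 4676 at its 5′ end shared 17 bases and was mostly spliced, with 166 of 180 reads.

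Some loci had more than 1 host, 54 of them on the opposite strand and up to 4 hosts each. Locus 2598, on chr2:28050981-28161032, shared 29 bases with the 3′ end of STK39 and contained a row of 905 bases on the opposite strand that was listed at 0 RPKM in all libraries. STK39, a kinase that acts on cation-chloride cotransporters, measured 34.5, 28.3 and 41.8 RPKM in GV and 34.3, 47.0 and 27.9 RPKM in MII, with overlapping stages. Locus 3048, on chr21:31740233-31920055, met the 3′ end of FBXO22, an F-box protein, with 47 bases and shared 59849 bases with C15orf27. FBXO22 measured 19.4, 27.5 and 15.9 RPKM in GV and 11.8, 7.28 and 5.36 RPKM in MII, whereas C15orf27 stayed under 1 RPKM in each library.

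In a later annotation, RefSeq's of the assembly ARS-UCD2.0, opposite-strand hosts shared their span with a long non-coding RNA gene in 179 of 645 that could be matched by symbol (27.8%), against 11.0% of 13260 genes of the table and 5 of 40 same-strand hosts. Opposite-strand hosts are longer than most genes, with a median of 64.0 kb against 24.5 kb, so the shares were set side by side within 3 classes of gene length. They were 9.71%, 19.4% and 36.3% for opposite-strand hosts below 13.1 kb, between, and above 44.9 kb, against 4.41%, 9.18% and 19.3% of all genes. With a coding gene, 37.5% of matched same-strand hosts shared their span, against 17.4% of all genes and 17.5% of opposite-strand hosts. These shares are descriptions of 2 annotations and were not tested.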

How the data were processed

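The authors deposited a table of RPKM for 20707 genes in 6 libraries and, per the file headers, an annotation extended with CLC bio transcript discovery. Its start and end coordinates, counted from 1, are used as deposited. The submitters' processing notes name DESeq with no role. For the aligner, the counter and the genome build, nothing is given in the sources used here.

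Overlaps of at least 1 base were taken in Python 3.11.15 with pandas 2.3.3, and position was measured from the host's 5′ end. Hosts were joined to RPKM by Ensembl identifier, and symbols are those of the table. MII was compared with GV by limma 3.58.1 under R 4.3.3 (lmFit, eBayes with trend) on log2(RPKM + 1), for all genes that averaged 1 RPKM or more, adjusted by Benjamini-Hochberg. The fit was also run on simulated data with independent noise, which tells nothing of deviations that a whole library shares. Fold changes on this scale understate those of low genes. Intervals are 95% exact binomial, scipy 1.17.1, and cover counting error only. Amplified reads are not independent molecules.

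The rule for named hosts took, per strand, the 8 loci of most support, the 6 largest rises and falls past 0.05 whose stages did not overlap and whose higher stage reached 10 RPKM, up to 4 hosts per list, the 3 most abundant, and the 2 best-supported loci with several hosts. Values of 1 listed host are not reported here. Members and lists were chosen with earlier results of these data known. Genome sequence was not used here.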

Additional observations from a re-analysis of the deposited data

How the results depend on the processing

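Depth limits hosts below 1 RPKM, where 1 RPKM is 40.5 to 65.4 reads for a gene model of 2 kb, and locus support has no replicates. Requiring an overlap of at least 50% of the locus left 16 same-strand loci, and coding rows alone left 0. Taking the locus 5′ end in place of its midpoint put 65.3% of same-strand pairs before the host. Leaving out each library in turn gave 4 to 7 lower and 7 to 19 higher same-strand hosts. For opposite-strand hosts it gave 79 to 108 lower and 15 to 36 higher, and for all tested genes 1719 to 2201 and 585 to 1338. Higher opposite-strand calls fell to 18 without GV14, 17 without GV15 and 22 without MII14c. Those of all tested genes fell to 762, 761 and 852. Without both untitled columns the counts were 4 higher on the same strand and 52 lower and 10 higher on the opposite strand. All tested genes then gave 1280 lower and 352 higher. Library weights gave 15 lower and 27 higher same-strand and 68 higher opposite-strand hosts, and quantile normalization 24 and 67 higher. All tested genes gave 3220 lower and 2262 higher with library weights, and 2133 higher with quantile normalization. The next counts come from fewer tested hosts, so beside the 64 and 393 tested as planned they do not by themselves show lost calls. A mean of at least 5 RPKM gave 66 lower of 204 opposite-strand hosts, beside 1558 lower of 5426 genes tested at that level. Hosts of loci at least 50% inside gave 1 lower and 4 higher of 13 on the same strand and 22 higher of 293 on the opposite strand. Hosts of loci with at least the median support gave 2 lower of 36 and 62 lower of 230. With the replicate block of the numbers 14 and 15 the counts were 6 lower and 16 higher, and 103 lower and 32 higher. All tested genes gave 2134 lower and 1141 higher with that block. Deviations from the stage mean correlated at 0.33 between GV14c and MII14c and 0.427 between GV15 and MII15, whose labels are alike. Pairs that share the number alone were at -0.00826 and -0.226, and the remaining pairs ran from -0.409 to 0.261. Whether like labels mark paired libraries was not tested, and the fit as planned pairs none. A term for the letter c, chosen after seeing the data, gave 8 lower and 17 higher same-strand hosts. It gave 146 and 44 opposite-strand hosts, beside 2975 and 1468 of all tested genes. Among single hosts, 11 values changed sign, all of hosts without a call. They were EHMT2 (-0.0517 without MII14c, up to 0.811 without MII15, and -0.0613 with a term for the letter c, chosen after seeing the data), EIF4E (0.0413, quantile), AKTIP (0.008, median-ratio), STK39 (-0.091 without GV14c, -0.15 without MII15, up to 0.216 without MII15c, -0.0348 with the replicate block and -0.268 with library weights) and ZNF655 (0.0267, quantile, 0.0815 without MII15, down to -0.829 without MII14c, and 0.0096 with the replicate block). The other values of single hosts kept their side of the threshold in 607 cases, lost a call in 26 and gained one in 24.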

Other observations

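CLOCK, the partner of ARNTL in the circadian transcription factor, was also a same-strand host. It lies outside the rule for named hosts and was chosen after its values were seen. It measured 14.6, 12.3 and 17.1 RPKM in GV and 41.0, 37.1 and 27.9 RPKM in MII, and every MII library lay above every GV library. The log2 change was 1.21 ± 0.25 (SE, limma adjusted p = 0.0053, at most 0.033 under the alternatives tried). Locus 5291, on chr6:72636589-72677880, shared 31 bases with the 5′ end of CLOCK and had 312 reads, 91 of them spliced, against 4175 for the gene. The locus at ARNTL was of another kind, with 21519 shared bases.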
